A study of Mus musculus with 8 samples.

Results

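The Cyp4f genes encode cytochrome P450 enzymes that add a hydroxyl group at or near the far (omega) end of leukotrienes and other long-chain fatty acids. All 5 Cyp4f genes considered here, Cyp4f13, Cyp4f14, Cyp4f15, Cyp4f16 and Cyp4f18, were chosen by name: every non-control probe that the array files assign to one of them was taken, which gave 6 of the 41174 probes. Cyp4f16 had a pair of probes and the others 1 probe each. All 6 probes passed the detection filter, which 31056 probes passed, but the dimmer Cyp4f16 probe was detected on 1 of the 4 arrays of the standard diet and passed through the 3 arrays of the atherogenic diet on which it was detected.

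Total RNA from the liver of 8 male wild-type C57BL/6 mice was hybridized in 1 colour, with 1 mouse per array, to an Agilent whole mouse genome array of 60-base probes. One group of 4 mice received standard chow (STD diet) for 4 weeks, and the other 4 received the atherogenic diet (ATH), which is high in fat and cholesterol and contains cholic acid. The mice were 14 to 17 weeks of age per the labels when the diets began, and none carried a transgene or a deletion. The diet serves as a model of fatty liver with inflammation, and the samples are whole liver, so a lower level in a gene's own cells and fewer such cells cannot be told apart. Among the 19 hepatocyte markers on a list written for this comparison, all were detected. All STD arrays shared 1 slide and all ATH arrays another, and an effect of the slide therefore cannot be told apart from one of diet.

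Leukotriene B4 draws neutrophils to inflamed tissue, and hydroxylation at its omega end starts its breakdown, which continues through an alcohol and an aldehyde to a carboxylic acid that peroxisomes shorten. Enzymes of the Cyp4f family also act on other substrates, among them arachidonic acid and the side chains of vitamins E and K. In mice, Cyp4f14 and Cyp4f15 are known as liver leukotriene B4 hydroxylases, Cyp4f14 also hydroxylates vitamin E, and Cyp4f18 is known mainly from neutrophils.

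The members are neighbours in the genome with the exception of Cyp4f18. By the coordinates of the array design (mouse build mm7), the Cyp4f16 probes lie at chr17:30743505-30743564 (the dimmer probe) and chr17:30749685-30749744, the Cyp4f15 probe at chr17:30905692-30905751, the Cyp4f14 probe at chr17:31107040-31107099 and the Cyp4f13 probe at chr17:31127900-31128047. The probes of Cyp4f15 and Cyp4f16 are on the plus strand and those of Cyp4f13 and Cyp4f14 on the minus strand. The 60 bases of the Cyp4f13 probe span 148 bases of genome. The Cyp4f18 probe is at chr8:70491704-70491763 on the minus strand. An annotation of that build was not used here, so the exon or untranslated region under each probe is not given.

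Because the family is made of close relatives, the probe letters bear on what each probe can tell apart. The array held 8 probes for 7 Cyp4f genes, counting Cyp4f39 and the pseudogene Cyp4f41-ps, and the longest run of bases that any pair of them shared was 9. Slid along each other without gaps, no pair matched at more than 26 bases. The probe of Cyp4f13 is shown because it carries the called decrease, that of Cyp4f18 as the member on another chromosome, and the dimmer one of Cyp4f16 because it passed the filter through the atherogenic diet alone. Capitals mark the longest run shared with another Cyp4f probe, which is that of Cyp4f14, Cyp4f39 and Cyp4f41-ps, respectively.
Cyp4f13: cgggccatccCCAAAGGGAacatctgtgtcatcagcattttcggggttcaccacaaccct
Cyp4f18: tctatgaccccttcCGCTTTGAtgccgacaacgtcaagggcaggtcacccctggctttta
Cyp4f16, dimmer probe: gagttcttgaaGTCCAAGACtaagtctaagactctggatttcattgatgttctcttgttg
These comparisons are between probes. Cyp4f17, Cyp4f37 and Cyp4f40 had no probe under their names, and whether their transcripts bind the probes of the members was not tested.

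Levels are given as the log2 processed signal minus the 75th percentile of the same array, and differences as log2 fold change of ATH over STD from limma with its standard error (SE, 4 mice per diet). Adjusted p-values are Benjamini-Hochberg values over all 31056 detected probes, and a probe was called at an adjusted p of at most 0.05. Levels of different probes were not set against each other, because probes differ in how strongly they bind. Of the 6 Cyp4f probes, 1 was called, with 8% of all detected probes called in either direction and 4.94% called lower. At a false discovery rate of 1%, which the study's methods use, 0 of the 6 Cyp4f probes and 0.528% of all probes were called by limma (0 of the 6 also by the methods' t-test), and at an unadjusted p of at most 0.05 it was also 1 of the 6, with 28.4% of all probes. At 5% the methods' t-test called 22 probes, of which 1 was a Cyp4f probe, that of Cyp4f13 (adjusted p = 0.0392). At their brightest probe, 4 of the 5 genes had a lower mean level on the atherogenic diet, and 67.1% of all detected probes were lower.

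Cyp4f13 was lower in all 4 livers of mice on the atherogenic diet. Its levels were 3.60, 3.42, 3.51 and 3.51 in the STD livers and 2.94, 2.94, 2.90 and 2.82 in the ATH livers. The diets did not overlap for this probe, as was the case for 19.9% of all probes (13.8% in this direction), and the gap was wide beside a range of 0.18 within the STD diet and 0.13 within the atherogenic diet. Mean levels were 3.51 ± 0.07 (SD, n = 4) and 2.90 ± 0.06 (SD, n = 4), and the signal in ATH livers was 65.6% of that in STD livers. The log2 fold change was -0.61 (SE 0.11, 95% interval -0.85 to -0.37; limma adjusted p = 0.019). The call was lost without scaling between arrays (log2 fold change -0.16, adjusted p = 0.298) and with scaling by spike-in probes (-0.30, adjusted p = 0.132). It was also lost without STD replicate 1 (adjusted p = 0.0642), STD replicate 3 (0.0596), STD replicate 4 (0.0559) or ATH replicate 4 (0.0572), while the log2 fold change stayed between -0.64 and -0.58 over all 8 arrays left out in turn.

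Cyp4f14 was tight among STD livers and spread out among ATH livers. The STD levels were 6.67, 6.73, 6.63 and 6.66. The ATH levels were 6.68, 6.88, 5.75 and 6.04, so that replicates 1 and 2 lay at or above the STD mean while replicates 3 and 4 lay below every STD liver. The SD was 0.04 among STD livers and 0.53 among ATH livers (n = 4 each), 12.8 times as large, whereas the median SD over all detected probes was 0.21 and 0.28. The pattern is not particular to Cyp4f14. Among bright hepatocyte markers, named after their values were seen, Serpinc1 had SDs of 0.01 (STD) and 0.25 (ATH). Alb had 0.02 and 0.23, while others, such as Trf (0.27 and 0.10), went the other way. The difference between the diets did not pass the test (log2 fold change -0.34, SE 0.24, 95% interval -0.88 to 0.21; limma adjusted p = 0.379). The interval includes a decrease larger than that of Cyp4f13. Without scaling the sign turned (0.11, adjusted p = 0.702).

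Cyp4f15 was likewise lower in ATH replicates 3 and 4 than in any STD liver, with replicates 1 and 2 near the highest STD levels. Its STD levels were 5.63, 5.58, 5.58 and 5.48, and its ATH levels were 5.61, 5.63, 5.08 and 5.33. The groups overlapped through ATH replicates 1 and 2, and the log2 fold change of -0.16 (SE 0.15, 95% interval -0.49 to 0.18) did not pass the test (limma adjusted p = 0.519). Its direction was not stable under the scaling, as it was 0.13 after quantile normalization, 0.16 when spike-in probes set the scale and 0.29 when arrays were left unscaled.

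Cyp4f16 had a higher mean level on the atherogenic diet at its brighter probe, under each of the 5 scalings tried, but did not pass the test. The STD levels were -1.23, -1.40, -0.99 and -0.76 and the ATH levels -1.03, -1.05, -0.36 and 0.07. ATH replicates 3 and 4 lay above every STD liver and ATH replicates 1 and 2 within the STD range. The log2 fold change was 0.50 (SE 0.27, 95% interval -0.11 to 1.12; limma adjusted p = 0.253). With same-numbered arrays as a block, the SE fell to 0.14 and the adjusted p was 0.089, which is still above the threshold.
At the dimmer probe the STD levels were -5.28, -5.67, -5.05 and -4.20 and the ATH levels -4.80, -5.12, -3.48 and -3.26. Since it was detected on 1 STD array and entered through the ATH arrays, its values are given as a description, with no fold change.

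Cyp4f18 was slightly lower on average, with overlap. Its STD levels were 3.75, 3.42, 3.71 and 3.66, and its ATH levels were 3.46, 3.35, 3.21 and 3.49. STD replicate 2 lay within the ATH range, and the other STD livers lay above it. The log2 fold change was -0.26 (SE 0.13, 95% interval -0.55 to 0.03; limma adjusted p = 0.221). Unscaled arrays gave 0.19 and spike-in scaling gave 0.05. The Cyp4f18 values in whole liver take in all its cells. Of 17 listed neutrophil markers with a probe, 16 were detected and Elane was not. The summed signal of the 16 detected markers was 3.87, 3.25, 5.55 and 16.3 times the array's 75th percentile in STD livers and 9.97, 5.54, 24.7 and 23.8 times in ATH livers. The high sum of STD replicate 4 came with a Lcn2 level of 3.44 there, beside -3.80 to -3.22 in the other STD livers, and the highest STD sum without that liver was 5.55.

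**Figure D1:**
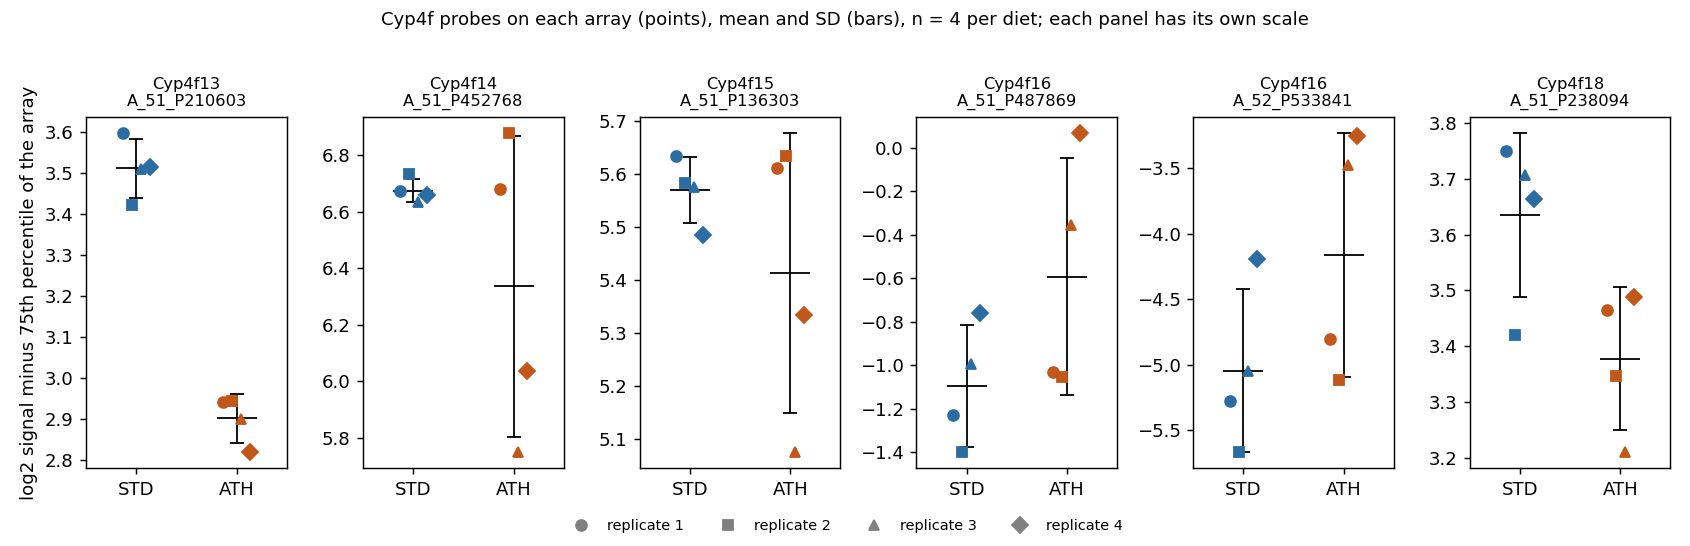
Log2 signal minus the array's 75th percentile (vertical axis, a separate scale in each panel) for the 6 Cyp4f probes in the STD and ATH livers. Points are single mice, with one symbol per replicate number, and bars give the mean and SD (n = 4). The diets are fully apart for Cyp4f13 alone, and ATH replicates 3 and 4 lie below the STD livers for Cyp4f14 and Cyp4f15 and above them for both Cyp4f16 probes, of which the second was detected on 1 STD array.

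How the arrays are brought to a common level shifts all members together. The 75th percentile was higher by 0.45 (log2) on the ATH arrays, and the median of the 10 spike-in probes was higher by 0.14. The median log2 fold change of all detected probes was therefore -0.15 with the 75th percentile, -0.05 after quantile normalization, 0.16 by spike-in probes and 0.30 for unscaled arrays. The share of called probes that were higher moved with it, from 38.2% to 54.3%, 86.4% and 94.9%. Relative to the median of all probes, the Cyp4f13 difference was -0.46 with the 75th percentile, for unscaled arrays and by spike-in probes, and -0.39 after quantile normalization. On the same relative scale, with the 75th percentile, Cyp4f14 was at -0.19, Cyp4f15 at -0.01, Cyp4f18 at -0.11 and the brighter Cyp4f16 probe at 0.65. After quantile normalization these were 0.01, 0.19, -0.02 and 0.56, respectively. Cyp4f15 thus sat at the middle of all probes in the main scaling, and Cyp4f13 kept a negative sign in each scaling tried.

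**Figure D2:**
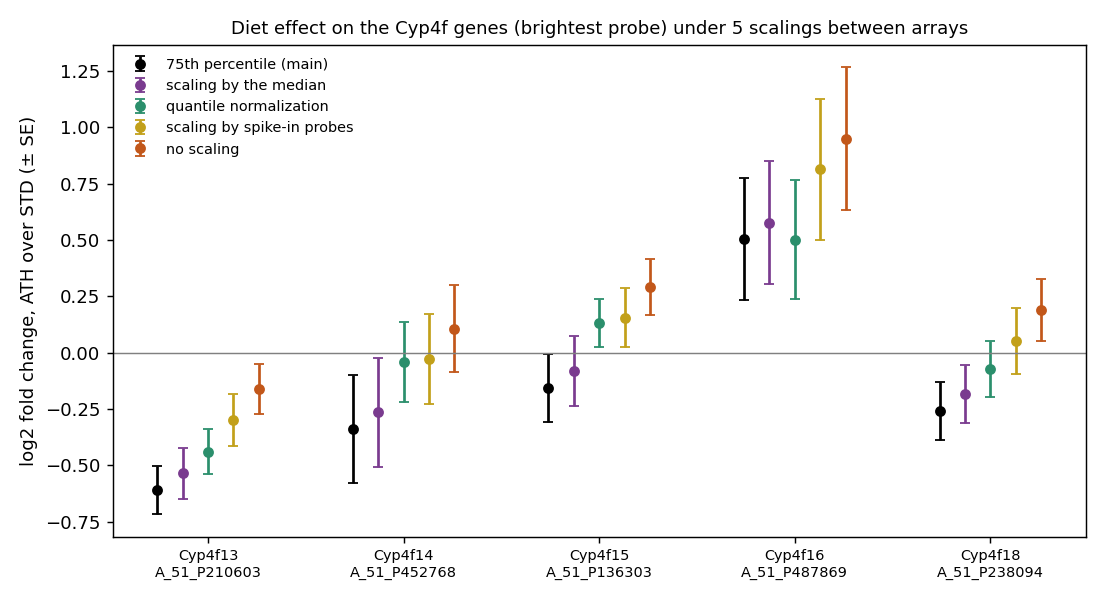
Log2 fold change of ATH over STD (vertical axis, bars are ± SE, n = 4 per diet) for the 5 Cyp4f genes at their brightest probe under 5 ways of scaling between arrays. Cyp4f13 is below 0 and Cyp4f16 above 0 under each, while Cyp4f14, Cyp4f15 and Cyp4f18 cross 0.

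Whether the members responded unlike each other was tested on differences within an array, where a constant scaling cancels. Each of the 10 pairs of genes was compared with an exact permutation test (two-sided, all 70 ways to assign the diet labels), and p-values were adjusted over the 10 pairs. Cyp4f13 minus Cyp4f15 was -2.04, -2.16, -2.07 and -1.97 in STD livers and -2.67, -2.69, -2.18 and -2.52 in ATH livers. All ATH values were below all STD values, with a difference of the means of -0.45 (exact p = 0.0286, adjusted p = 0.0953). Cyp4f13 minus Cyp4f16 was 4.83, 4.82, 4.50 and 4.27 in STD livers and 3.97, 4.00, 3.26 and 2.75 in ATH livers, a difference of -1.11 (exact p = 0.0286, adjusted p = 0.0953). Cyp4f13 minus Cyp4f18 was -0.15, 0.00, -0.20 and -0.15 in STD livers and -0.52, -0.40, -0.31 and -0.67 in ATH livers, a difference of -0.35 (exact p = 0.0286, adjusted p = 0.0953). Cyp4f13 thus separated the diets relative to 3 of the other 4 genes, at the smallest p that free assignment of the labels allows, and 0 of the 10 pairs passed 5% after adjustment. Relative to Cyp4f14 the diets overlapped, with -3.08, -3.31, -3.13 and -3.15 in STD livers and -3.74, -3.94, -2.85 and -3.22 in ATH livers (difference -0.27, exact p = 0.343, adjusted p = 0.429). Cyp4f16 minus Cyp4f18 differed by 0.76 between the diets (exact p = 0.0571, adjusted p = 0.143), and the remaining 5 pairs had adjusted p-values of 0.429 or more. With same-numbered arrays paired, the exact test has a smallest p of 0.125. The 3 Cyp4f13 pairs above had that p, and so did each of the 3 pairs of Cyp4f16 with Cyp4f14, Cyp4f15 and Cyp4f18, so this test does not set Cyp4f13 apart from Cyp4f16. The pairs share genes and are not independent of each other.

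**Figure D3:**
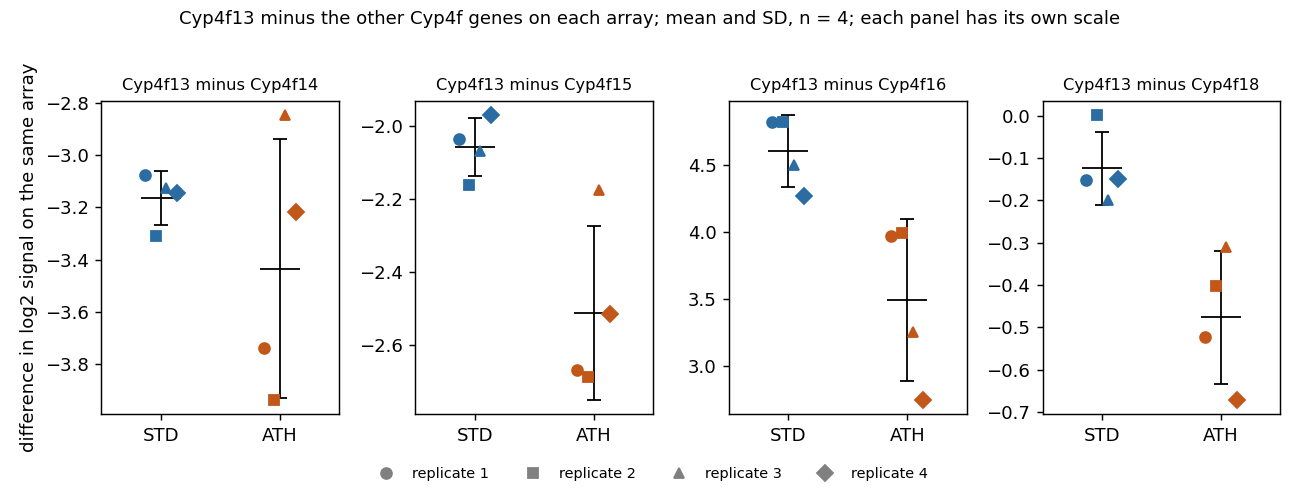
Log2 signal of Cyp4f13 minus that of Cyp4f14, Cyp4f15, Cyp4f16 and Cyp4f18 on the same array (vertical axis, a separate scale in each panel) in STD and ATH livers. Points are single mice, and bars give the mean and SD (n = 4). The diets do not overlap for Cyp4f15, Cyp4f16 and Cyp4f18, and they overlap for Cyp4f14.

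The ATH livers that stood apart for Cyp4f14, Cyp4f15 and Cyp4f16 also differed in cell type markers. The summed signal of the 19 macrophage markers, in units of the array's 75th percentile, was 49.9 to 62.4 in STD livers, and it was 144, 77.0, 339 and 384 in ATH replicates 1 to 4. Marco, named after its values were seen, weighs heavily in these sums. It was the brightest of the markers in each ATH liver, at 5.72, 3.93, 7.37 and 7.54, beside 1.89 to 3.34 in STD livers. Cd163 was the marker that was lower on average (log2 fold change -1.33, limma adjusted p = 0.109). Of these markers 18 were higher on average and 8 were called higher, beside 4.05% of all genes, among them Lgals3, Clec7a, Fcgr1 and Tyrobp, with a median log2 fold change of 1.47. The summed signal of the 19 hepatocyte markers was 7100 to 7420 in STD livers and 5950, 6380, 5110 and 4760 in ATH replicates 1 to 4. Of the hepatocyte markers 17 were lower on average, beside 65.1% of all genes, and 4 were called lower (Ass1, Tat, Fabp1 and Hpd), beside 5.3% of all genes, and the list's median was -0.38 on the log2 scale, but 0.05 after quantile normalization and 0.07 for unscaled arrays. ATH replicates 3 and 4 thus had the highest macrophage sums and the lowest hepatocyte sums, and their part in the Cyp4f differences was not tested. The Cyp4f13 levels were also lowest in ATH replicates 3 and 4, with all 4 ATH levels within 0.13 of each other on the log2 scale.
Of 7 detected dendritic cell markers, 3 were called higher (Itgax, Flt3 and Siglech), beside 4.05% of all genes, and 1 lower (Xcr1), beside 5.3%. Siglech was dim in STD livers, at -5.25, -6.55, -7.41 and -5.70. Among probes detected on all 8 arrays, 6 of these markers remained and 2 were called higher. With normexp background correction 1 of the 7 was called higher and 1 lower. The list's median log2 fold change was then 0.24, beside 0.80 in the main fit. Called higher was 1 gene each of 10 stellate cell (Col3a1), 8 endothelial (Lyve1) and 6 cholangiocyte markers (Sox9), beside 4.05% of all genes. Called lower was 1 of 2 detected red cell markers (Alas2), beside 5.3% of all genes. Single calls in lists this short are given as a description. Of the 16 detected neutrophil markers 13 were higher on average, with a median log2 fold change of 0.48. In this list 1 gene was called, Itgb2l, which was lower, beside 5.3% of all genes called lower. S100a8 and S100a9, the calprotectin subunits, were at 1.93 and 1.73 (log2 fold change, adjusted p = 0.0733 and 0.0787) and were named after their values were seen. With the replicate block 2 neutrophil markers were called higher and 1 lower. For unscaled arrays 6 were called higher, as were 6990 of the 31056 detected probes. With normexp background correction 10 neutrophil markers were higher on average and 6 lower, with a median log2 fold change of 0.09. That fit called 2 of them higher and 2 lower, beside 1210 and 5184 of the 31056 detected probes. Of 13 T, B and NK cell markers, 0 were called by limma, and 4 had an unadjusted p of at most 0.05, beside 28.4% of all detected probes. The methods' t-test called 0 genes of each marker list, the macrophage and hepatocyte lists included. Leaving out each array in turn gave 2 to 14 macrophage markers called higher (2 without any 1 of the STD arrays or ATH replicate 3, and 3 without ATH replicate 4) and 1 to 6 hepatocyte markers called lower (1 without any 1 of the STD arrays or ATH replicate 3 or 4). With the replicate block, 5 macrophage, 1 hepatocyte and 1 dendritic cell marker passed the threshold, and leaving out 1 array lost the call of each called marker named here except Lgals3, Clec7a and Tat for at least 1 of the 8 arrays.

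**Figure D4:**
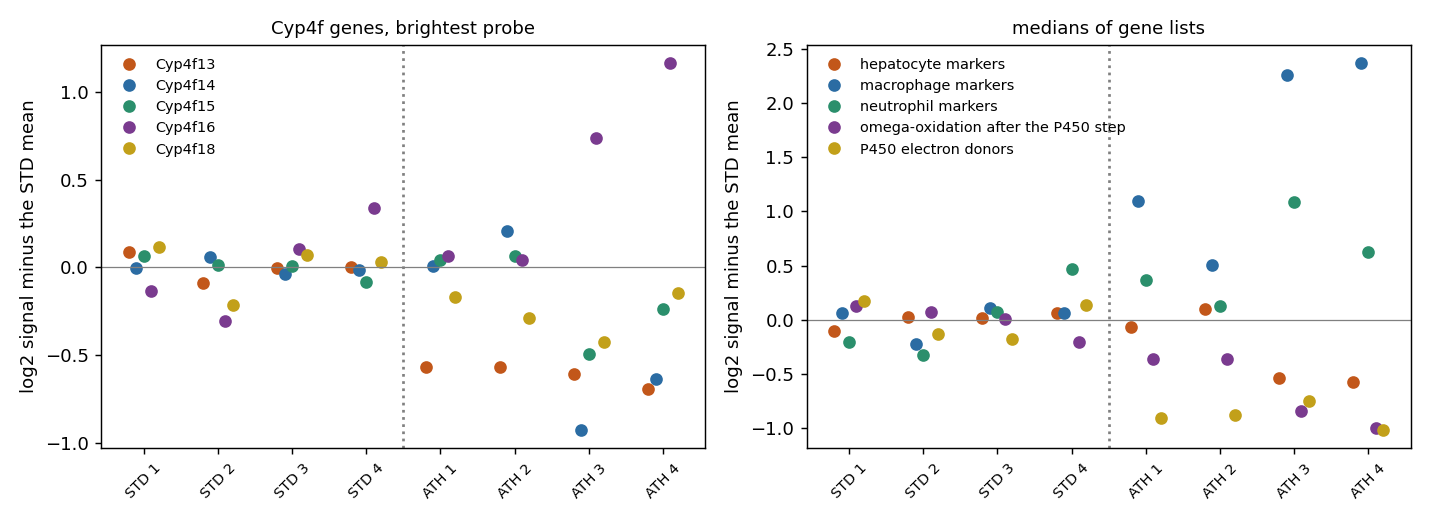
Level on each of the 8 arrays relative to the STD mean (log2 units, vertical axis) for the 5 Cyp4f genes at their brightest probe (left) and for the median of 5 gene lists (right). The dotted line separates the diets. The macrophage medians are highest and the hepatocyte medians lowest in ATH replicates 3 and 4, and Cyp4f13 is lower to a like degree in all 4 ATH livers.

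The leukotriene pathway list, whose genes are not all upstream of the Cyp4f step, contained 1 called gene. This is 7.1% of those detected, beside 4.05% of all genes called higher. Of 15 listed genes (synthesis, conversion and receptors) 14 were detected, 6 lower and 8 higher on average, with a median log2 fold change of 0.18 beside -0.14 over all genes. Alox5ap, the protein that presents arachidonic acid to 5-lipoxygenase, was at -0.60, -0.64, -0.61 and -0.54 in STD livers and 0.79, 0.29, 1.67 and 2.08 in ATH livers, a rise of 1.80 on the log2 scale (SE 0.35, limma adjusted p = 0.0245). All ATH livers were above all STD livers, and the highest levels were again in ATH replicates 3 and 4. The call was lost without any 1 of the STD arrays or without ATH replicate 3 (highest adjusted p = 0.0707). The lipoxygenase Alox5 itself was not called (log2 fold change 0.13, adjusted p = 0.782), nor was Lta4h, which makes leukotriene B4 (-0.20, adjusted p = 0.31), nor its receptors Ltb4r1 (-0.02, adjusted p = 0.95) and Ltb4r2 (-0.05, adjusted p = 0.887). Ptgr1, which inactivates leukotriene B4 by another route, was at 0.54 (adjusted p = 0.148). For unscaled arrays 5 genes of the list were called higher, as were 6990 of the 31056 detected probes. With normexp background correction 7 genes were lower and 7 higher on average. The list's median was then 0.02, beside -0.17 over all genes.

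Among other Cyp4 genes, which hydroxylate fatty acids at the same end, 8 of 15 listed had a probe, 3 were called lower, beside 5.3% of all genes, and none higher. The number was 0 without STD replicate 3 or ATH replicate 4, and 1 without STD replicate 1. Cyp4a10 (log2 fold change -1.16, adjusted p = 0.0179), Cyp4a12a (-1.55, adjusted p = 0.0189) and Cyp4a14 (-3.82, adjusted p = 0.0426) fell, with SEs of 0.20, 0.27 and 0.92, respectively. Cyp4a12a was at 6.31, 6.69, 6.09 and 5.74 in STD livers and 5.16, 4.72, 4.03 and 4.72 in ATH livers, without overlap. The Cyp4a14 call was lost without any 1 of the STD arrays or ATH replicate 3 or 4 (highest adjusted p = 0.101), that of Cyp4a12a without STD replicate 1 or 3 or ATH replicate 4 (0.0585) and that of Cyp4a10 without STD replicate 3 or ATH replicate 4 (0.0532). Cyp4f39, a relative known from skin, was not called (log2 fold change 0.01, adjusted p = 0.985).

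Downstream of the P450 step, 7 of 17 genes were called lower. Of the 17 listed enzymes and carriers that turn an omega-hydroxy acid into a dicarboxylic acid and shorten it, all were detected and all were lower on average, beside 65.1% of all genes, with a median log2 fold change of -0.67. The 7 called lower are 41.2% of the list, beside 5.3% of all genes. Their number was 1 without STD replicate 1 or 3, 2 without ATH replicate 3 or 4, and 3 without STD replicate 2 or 4, and it was 0 by the methods' t-test. The list's median level, like the hepatocyte marker sum, was lowest in ATH replicates 3 and 4, and the part of the hepatocyte share in it was not tested. Aldh1a1, an aldehyde dehydrogenase, was at 8.44, 8.37, 8.36 and 8.39 in STD livers and 7.38, 7.45, 6.89 and 6.94 in ATH livers (log2 fold change -1.22, SE 0.16, adjusted p = 0.00751). Crat, which forms acetylcarnitine, fell by 1.01 on the log2 scale (adjusted p = 0.0166). The peroxisomal thiolase Acaa1a fell by 0.71 on the log2 scale (adjusted p = 0.0298). Quantile normalization, spike-in probes and unscaled arrays each gave 3 genes of this list called lower, and 15 of the 17 were lower on average for unscaled arrays. Aldh1a1 was still called without any 1 array, whereas Acaa1a was not called without any 1 of the STD arrays or without ATH replicate 3 or 4 (highest adjusted p = 0.0847), nor was Crat without STD replicate 1 or 3 (0.0544).
Electrons reach P450 enzymes through Por and cytochrome b5. Of 4 listed genes, all were lower on average (65.1% of all genes were) and 2 were called lower (5.3% of all genes were). Cyb5b fell by 0.93 (adjusted p = 0.019) and Cyb5r3, the cytochrome b5 reductase, by 0.76 on the log2 scale (adjusted p = 0.0254). Por was at -0.85 (adjusted p = 0.0759). Neither call of this list remained without STD replicate 1, 3 or 4 or ATH replicate 4 (highest adjusted p = 0.0594 for Cyb5b and 0.0717 for Cyb5r3), and Cyb5r3 was also not called without STD replicate 2 or ATH replicate 3. Of 6 genes that handle the vitamin K and vitamin E substrates, 1 was called lower, beside 5.3% of all genes. Ttpa, the vitamin E transfer protein of liver, fell by 0.53 on the log2 scale (adjusted p = 0.0467). The list's median was -0.25, or 0.20 for unscaled arrays and 0.06 by spike-in probes. With the replicate block Ttpa had an adjusted p of 0.0569, and it was not called without any 1 array other than ATH replicate 2 (highest adjusted p = 0.122).

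**Figure D5:**
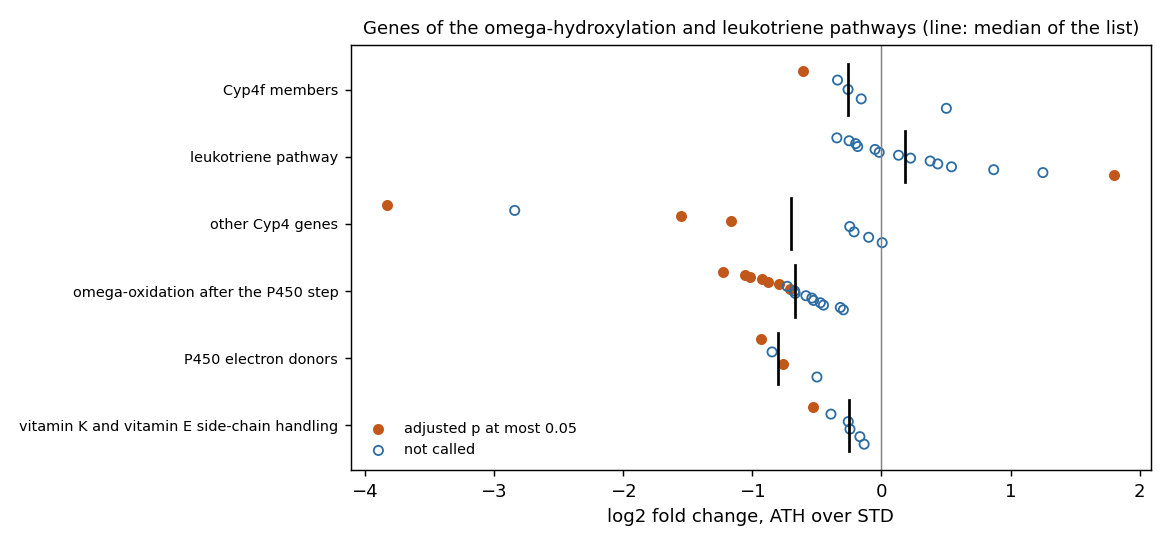
Log2 fold change of ATH over STD (horizontal axis) for each detected gene of the Cyp4f family and of 5 lists around it. Filled points were called at an adjusted p of at most 0.05, open points were not, and a vertical line gives each list's median. All points of the omega-oxidation list lie left of 0, and Alox5ap is the called point to the right.

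Genes near the members were examined by counts. Within 300 kb of the members on chromosome 17 there were 40 probes for 27 genes, the members left out. Of these, 37 were detected, 26 were lower on average (67.1% of all detected probes were) and 1 was called (8% of all detected probes were), a probe of Zfp422-ps (log2 fold change -0.57, adjusted p = 0.0477), with a median of -0.19. The other Zfp422-ps probes in this window were at -0.09 (limma adjusted p = 0.822) and -0.29 (0.544). Around Cyp4f18 on chromosome 8, 18 of 21 probes were detected and 1 was called, for the actin-binding gene Tpm4 (0.88, adjusted p = 0.0335).

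The genes whose level followed each member most closely over the 8 arrays were named by Pearson r, as a description of arrays that share diet and slide. For Cyp4f13 these were Ilrun (0.99), Tmbim6 (0.99) and Sdhc (0.99). For Cyp4f14 they were Fbxo3, Zc3hc1 and Dnajc19 (each 0.99), and for Cyp4f15 they included Rnf125 (0.99) and Sucnr1 (0.99). Cyp4f16 was closest to Gpr162, Esyt1 and Crlf2 (each 0.98), and Cyp4f18 to Zbtb22 (0.98), Lrrc39 (0.97) and Sh3glb2 (0.96). High values were common: 722 of the 16549 genes ranked had r over 0.9 with Cyp4f13, 873 with Cyp4f14, 428 with Cyp4f15, 222 with Cyp4f16 and 67 with Cyp4f18. Among the members, Cyp4f14 and Cyp4f15 followed each other at 0.96, while Cyp4f13 and Cyp4f14 were at 0.52 and Cyp4f14 and Cyp4f16 at -0.83.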

How the data were processed

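The authors scanned 8 1-color arrays with Agilent Feature Extraction 9.5, and the deposited scanner output holds background-subtracted, detrended spot intensity values (gProcessedSignal). The authors also deposited a GeneSpring table of log2 values, whose scaling and baseline are not given in the sources used here; it served as an alternative. The diet in each sample's label set its group. Outlier-flagged and control spots were left out, spots of a probe were averaged, and log2 signal minus the array's 75th percentile was used. A probe was kept if, in 1 of the diets or in both, 3 or more of the 4 arrays had it above background and unflagged. Diet was tested with limma 3.58.1 in R 4.3.3 over all detected probes, two-sided, by lmFit and eBayes with Benjamini-Hochberg adjustment. Python 3.11.15, numpy 2.4.6, pandas 2.3.3 and matplotlib 3.10.9 were used for exact tests, summaries and plots. The fit was tested on simulated data.

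A gene was represented by its brightest detected probe. Of the probes, 22951 were named by accession, 6659 by symbol, 3109 by synonym and 8455 only as in the files. The members and lists were chosen with earlier results of these data known. Named were all members, up to 4 genes with the smallest adjusted p per list and direction, called neighbours and the 3 genes closest to each member; others were named for their pathway role after their values were seen, as was each not-called gene of the leukotriene and Cyp4 lists given with values. Some genes that this rule would name are not reported here.

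Between 72.4% and 77.8% of spots were well above background on the 8 arrays, and the number of arrays limits the precision. Replicates correlated at 0.986 to 0.991 (STD) and 0.971 to 0.990 (ATH). Arrays with the same number share a slide position, and what remained after taking out the diet means correlated between them at 0.10, 0.23, 0.18 and 0.18. The main fit and the main exact tests did not use this pairing. It entered as an alternative, by the replicate block and the paired exact test. Alternatives covered background correction, scaling, deposited values, filter, test, threshold, replicate block, probe per gene and each array left out.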

Additional observations from a re-analysis of the deposited data

Results flagged for a closer look

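In 3 of 68 groups of 4 arrays, 1 array stood apart from the other 3 by Dixon's ratio (gap over range, at the 95% critical value), and chance flags about 1 in 20 groups. None of the 3 was a Cyp4f probe. The hepatocyte marker Hpd had a high STD array (ratio 0.872), the macrophage marker Tyrobp a high STD array (0.886) and the neutrophil marker Itgb2l a low ATH array (0.912). The groups did not take in every gene given here. Lcn2, which was far higher in STD replicate 4 than in the other STD livers, was not among them.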

How the results depend on the processing

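The number of probes called was 2483, and it was 6394 with normexp, 7364 without scaling, 1086 without the detection filter, 1322 with the replicate block, 22 with the methods' t-test after adjustment, 164 at 1%, and 394 to 3979 without each array in turn. Of the Cyp4f probes, 1 was called, and 0 without scaling, with spike-in scaling, at 1%, or without STD replicate 1, 3 or 4 or ATH replicate 4 (range 0 to 1). For Cyp4f13 the log2 fold change was -0.61 at 1% (not called), -0.16 without scaling and -0.30 with spike-in scaling, and -0.64 to -0.58 without each array (adjusted p 0.0154 to 0.0642). With the replicate block it was -0.61 (adjusted p = 0.0478), and the block changed no other call of a member; with the same-numbered arrays paired, the exact test of a pair of genes cannot go below 0.125. The sign turned for Cyp4f14 without scaling (0.11), for Cyp4f15 with quantile normalization (0.13), without scaling (0.29) and with spike-in scaling (0.16), for Cyp4f18 without scaling (0.19) and with spike-in scaling (0.053), and for Cyp4f14 minus Cyp4f18 with quantile normalization (0.029), without STD replicate 2 (0.0093) and without ATH replicate 3 (0.0588) or 4 (0.0557); the cause was not tested. Without each array, the log2 fold change was -0.52 to -0.14 for Cyp4f14, -0.23 to -0.04 for Cyp4f15, 0.28 to 0.66 for Cyp4f16 and -0.33 to -0.20 for Cyp4f18. The deposited log2 values called 2481 probes. The methods' t-test called 0 genes of each gene list, among them the leukotriene, other Cyp4 and electron donor lists. The pairs past 5% were 0 under each scaling, with normexp, with the deposited values and with the mean of a gene's probes; the count was not run with an array left out or with the block. For the called list genes named by their smallest adjusted p, alternative fits lost a call with the same direction 241 times and none turned the sign. Genes named without a call are not in this count, and some of them did turn. For unscaled arrays all 14 detected leukotriene genes were higher on average, beside 6 lower and 8 higher in the main fit. Wide spread among ATH livers, and the dim signal of the second Cyp4f16 probe, limit what these arrays can separate.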
